A study of Mus musculus with 28 samples.

Results

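The genes described here are 10 transporters that carry amino acids across the plasma membrane, *Slc7a5*, *Slc3a2*, *Slc7a11*, *Slc7a1*, *Slc7a2*, *Slc38a2*, *Slc1a4*, *Slc1a5*, *Slc6a9* and *Slc7a8*. They were taken by symbol from a table of 12732 genes, and all 10 were found there. RNA of 14 *mfn1,2* and 14 wt mice was sequenced, 1 library each, from the tibialis anterior (TA), a muscle of the hindlimb that is built mostly of fast-twitch fibers. By the methods, *mfn1,2* mice carried Myl1-Cre with 1 deleted and 1 floxed allele each of *Mfn1* and *Mfn2*, and wt mice carried 1 wild-type and 1 floxed allele of each gene. Both genotypes came from the same crosses, and Myl1-Cre acts in fast-twitch fibers, so other cells of *mfn1,2* muscle kept the floxed alleles intact beside the deleted ones. By the labels each genotype had 4 mice at each of 4, 6 and 8 weeks and 2 mice at 10 weeks. Columns carry the genotype and a running number, so no library could be given its age, and differences with age add to the spread within a genotype.

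Amino acids enter cells through carriers of the solute carrier (SLC) families, some of which take up their substrate with sodium and some of which exchange one amino acid for another. Members of the SLC7 family called light chains reach the plasma membrane only when bound to the heavy chain 4F2hc, also known as CD98, which *Slc3a2* encodes. In cultured mammalian cells short of amino acids, or with an active integrated stress response, the transcription factor ATF4 raises the transcription of several of these carriers, and the leucine they bring in is sensed by the kinase mTORC1.

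Values are a normalized signal per gene that falls with gene length, as in FPKM or TPM, so levels may be set side by side between genes. Each library was brought to a common scale by its median ratio to the mean library, and a level below is this scaled signal, with no further unit. Fold changes are differences in log2(level + 0.1), which understates changes of genes near 0. "Rose" and "fell" stand for an adjusted *P* from limma under 0.01 (Benjamini-Hochberg) among 10819 genes, those with a mean level of at least 0.5. The choice of scale matters in these libraries. Mitochondrially encoded genes took 24.9% to 35.5% of the signal in *mfn1,2* libraries and 49.4% to 71.3% in wt libraries, and the deposited values summed to 326643 to 419290 in *mfn1,2* libraries and 426029 to 564123 in wt libraries. On the common scale the median log2 fold change over all genes was 0.03, against 0.64 in the values as deposited, 0.83 with libraries scaled to *Actb* and 1.04 with libraries scaled to the same total. The targeted gene *Mfn1* fell in *mfn1,2* muscle by 2.04 on the log2 scale (standard error, SE, 0.13, adjusted *P* = 1.62e-14 from limma). *Mfn2* fell by 0.66 (SE 0.073, adjusted *P* = 4.59e-09) on the common scale but not as deposited (−0.02), scaled to *Actb* (0.18) or scaled to the same total (0.40). In a clustering of the libraries the main split was between the genotypes. The tree of each genotype was then cut at its top split, and the smaller part was taken to stand apart. By this rule some libraries had to stand apart in each genotype. They were 5, 1 *mfn1,2* (number 8) and 4 wt (numbers 6, 8, 9 and 13). The counts of transporters that rose and fell were the same without these 5.

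Of the 10 transporters, 9 were abundant enough to be tested across all genes. In *mfn1,2* muscle 6 of them rose (*Slc7a5*, *Slc7a11*, *Slc6a9*, *Slc7a1*, *Slc3a2* and *Slc38a2*), where 28.2% of all tested genes rose. Another 2 fell (*Slc7a8* and *Slc7a2*), where 24.9% of all tested genes fell, and *Slc1a5* did not pass the test in either direction. With an absolute log2 fold change over 1 also required, 5 of the 9 were higher, where 7.15% of all tested genes were, and 1 was lower (*Slc7a8*), where 6.57% were. The median log2 fold change of the 9 was 2.01, against 0.03 over all genes tested. For 5 of them the lowest *mfn1,2* library exceeded the highest wt library, which was the case for 6.15% of all tested genes, and none of the 9 had every *mfn1,2* library below every wt library, against 5.08% of all tested genes. *Slc1a4*, with a mean level of 0.464 over all libraries, was under the minimum and was compared on its own. *Slc7a5*, *Slc7a11* and *Slc6a9*, at wt means of 0.359, 0.0890 and 0.346, met the minimum only through their *mfn1,2* libraries. All of them are part of the counts of rises above. A gene this low in wt muscle was tested only if higher in *mfn1,2* muscle, so no fall could be called for it. The 10 levels summed to 82.3 ± 9.73 (SD, *n* = 14) in *mfn1,2* muscle and 36.1 ± 7.77 (SD, *n* = 14) in wt muscle, and the ranges of 61.6 to 100.4 and of 25.6 to 52.7 did not overlap. TA muscle was sequenced in bulk, so more RNA per cell and more cells of a kind that holds the RNA cannot be told apart for any of these genes.

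**Figure D1:**
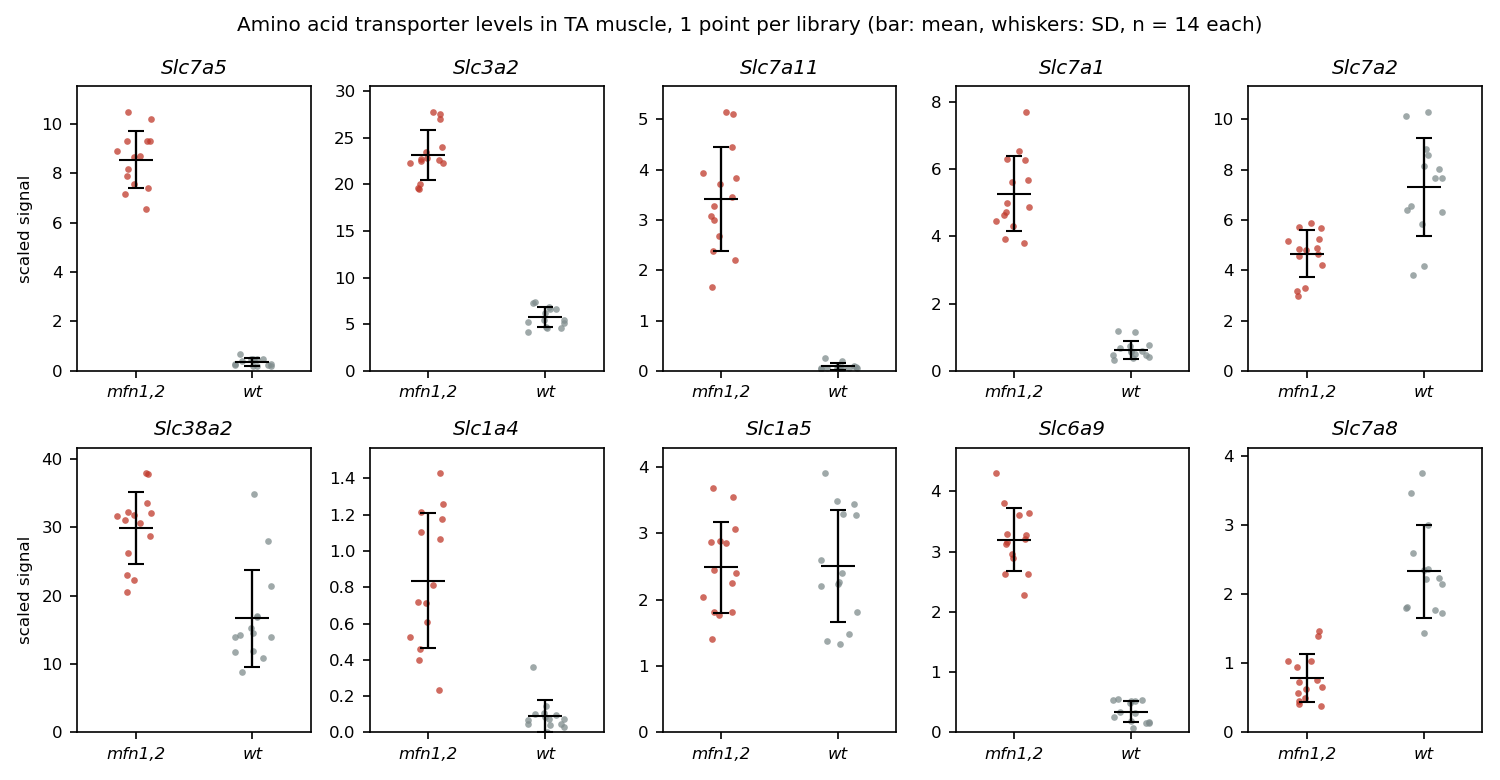
Scaled level of each of the 10 transporters (vertical axis, scaled signal, linear from 0) in the 14 *mfn1,2* libraries (left, red) and the 14 wt libraries (right, grey), with 1 point per library, a bar at the mean and whiskers of 1 SD. The genotypes do not overlap for *Slc7a5*, *Slc3a2*, *Slc7a11*, *Slc7a1* and *Slc6a9*. For *Slc7a8* and *Slc7a2* the mean is lower in *mfn1,2* libraries but the genotypes overlap, and for *Slc1a5* they cover much the same range.

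*Slc3a2*, the heavy chain shared by the light chains *Slc7a5*, *Slc7a8* and *Slc7a11*, ranged over 19.5 to 27.8 with a median of 22.7 in *mfn1,2* libraries, against 4.17 to 7.36 with a median of 5.46 in wt libraries. Every *mfn1,2* library was far above every wt library, and the spread was narrow in both genotypes (coefficient of variation 11.6% in *mfn1,2* and 18.8% in wt). The means of 23.1 ± 2.69 and 5.74 ± 1.08 (SD, *n* = 14 each) corresponded to 2.01 on the log2 scale (SE 0.085, adjusted *P* = 1.16e-18 from limma).

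*Slc7a5* encodes LAT1, the light chain that exchanges leucine and other large neutral amino acids for intracellular glutamine. Its level ranged over 6.53 to 10.5 with a median of 8.68 in *mfn1,2* libraries, against 0.187 to 0.698 with a median of 0.327 in wt libraries. All 14 *mfn1,2* libraries were high and all 14 wt libraries were low, with wt library 8 the highest of the wt. The mean level was 23.8 times as high in *mfn1,2* muscle, and the log2 fold change was 4.30 (SE 0.13, adjusted *P* = 5.95e-22 from limma). With 1 added in place of 0.1 it was 2.81. *Slc7a5* lay above 74.9% of all genes of the table by mean level in *mfn1,2* muscle and above 10.8% of them in wt muscle. It was also among the least variable of the set in *mfn1,2* muscle, with a coefficient of variation of 13.4%, against 42.8% in wt muscle, where levels were near 0.

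*Slc7a8* encodes LAT2, the other light chain for large neutral amino acids, which also takes small ones. It moved the other way. Its level ranged over 0.386 to 1.47 with a median of 0.694 in *mfn1,2* libraries, against 1.43 to 3.74 with a median of 2.23 in wt libraries. The genotypes touched at a single library, *mfn1,2* number 8, which at 1.47 was just above wt number 1 at 1.43, and the 13 other *mfn1,2* libraries were below every wt library. On the log2 scale the change was −1.51 (SE 0.17, adjusted *P* = 8.29e-09 from limma). The fall was smaller on several other scales, at −1.38 scaled to the same total without mitochondrially encoded genes, −0.93 as deposited, −0.74 scaled to *Actb* and −0.54 scaled to the same total, where it no longer passed (adjusted *P* = 0.028 from limma), and it was −1.57 scaled to the upper quartile.

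*Slc7a11* encodes xCT, the light chain that imports cystine in exchange for glutamate and so supplies cysteine for glutathione. It ranged over 1.68 to 5.15 with a median of 3.36 in *mfn1,2* libraries, against 0.0284 to 0.259 with a median of 0.0646 in wt libraries, where its mean was the lowest of the 10. No *mfn1,2* library was near the wt range, and wt libraries 8 and 9 were the highest of the wt. The change was 4.22 on the log2 scale (SE 0.16, adjusted *P* = 7.63e-20 from limma). Since wt levels were near the added 0.1, this understates the ratio of the mean levels, 3.43 ± 1.03 in *mfn1,2* and 0.0890 ± 0.0630 in wt muscle (SD, *n* = 14 each), which was 38.5. With 0.01 added the log2 fold change was 5.25, above the 4.64 of *Slc7a5*, and with 1 added it was 1.99, below the 2.81 of *Slc7a5*, so the order of these 2 rises depends on the amount added. *Slc7a11* lay above 52.7% of all genes by mean level in *mfn1,2* muscle and above 2.10% in wt muscle.

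Among the light chains, the commonest one differed between the genotypes. Within each library the log2 ratio of *Slc7a5* to *Slc7a8* was 3.37 ± 0.64 (SD, *n* = 14) in *mfn1,2* muscle, ranging from 2.26 to 4.28, and −2.43 ± 0.49 (SD, *n* = 14) in wt muscle, ranging from −3.07 to −1.40. *Slc7a5* thus exceeded *Slc7a8* in 14 of 14 *mfn1,2* libraries and in 0 of 14 wt libraries. The difference of 5.80 had a permutation *P* of 2e-05 (2-sided, 100000 resamples), the lowest value possible, also after adjustment over the 3 ratios tested. A ratio within a library hardly depends on the scale, but it does depend on the amount added before taking logs, and with 1 added in place of 0.1 the difference was 3.71. Of the summed level of the 3 light chains, *Slc7a5* made up 67.4% ± 7.84, *Slc7a11* 26.5% ± 6.02 and *Slc7a8* 6.09% ± 2.30 in *mfn1,2* muscle (SD, *n* = 14). In wt muscle *Slc7a8* made up 83.9% ± 5.56, with 71.1% as its lowest share, *Slc7a11* made up 3.11% ± 1.46 (SD, *n* = 14), and *Slc7a5* ranged over 7.38% to 23.9%.

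The level of the heavy chain and the sum of the 3 light chains differed between the genotypes by a like factor. The light chains summed to 0.552 ± 0.0556 (SD, *n* = 14) of the *Slc3a2* level in *mfn1,2* libraries, ranging from 0.476 to 0.659, and to 0.490 ± 0.125 (SD, *n* = 14) in wt libraries, ranging from 0.326 to 0.782. The wt range covers the *mfn1,2* range. This ratio was computed after the levels had been seen and was not tested. From library to library, *Slc3a2* and *Slc7a11* went together in *mfn1,2* muscle by Pearson's measure (*r* = 0.73, permutation *P* = 0.0031, 0.0186 adjusted over 6 relations, *n* = 14) but not at an adjusted *P* under 0.05 by Spearman's (rho = 0.54, permutation *P* = 0.0509, 0.248 adjusted). Without the 2 libraries farthest from the median of *Slc3a2*, *r* was 0.55. *Slc3a2* and *Slc7a5* gave *r* = 0.11 and rho = 0.13 in *mfn1,2* muscle (permutation *P* = 0.698 and 0.669 adjusted, *n* = 14). The other 4 relations had *r* from 0.31 to 0.54 and none had an adjusted *P* under 0.05. All of these share the scale factor of a library, and the 3 relations in wt libraries had an adjusted *P* under 0.05 when the values were taken as deposited.

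**Figure D2:**
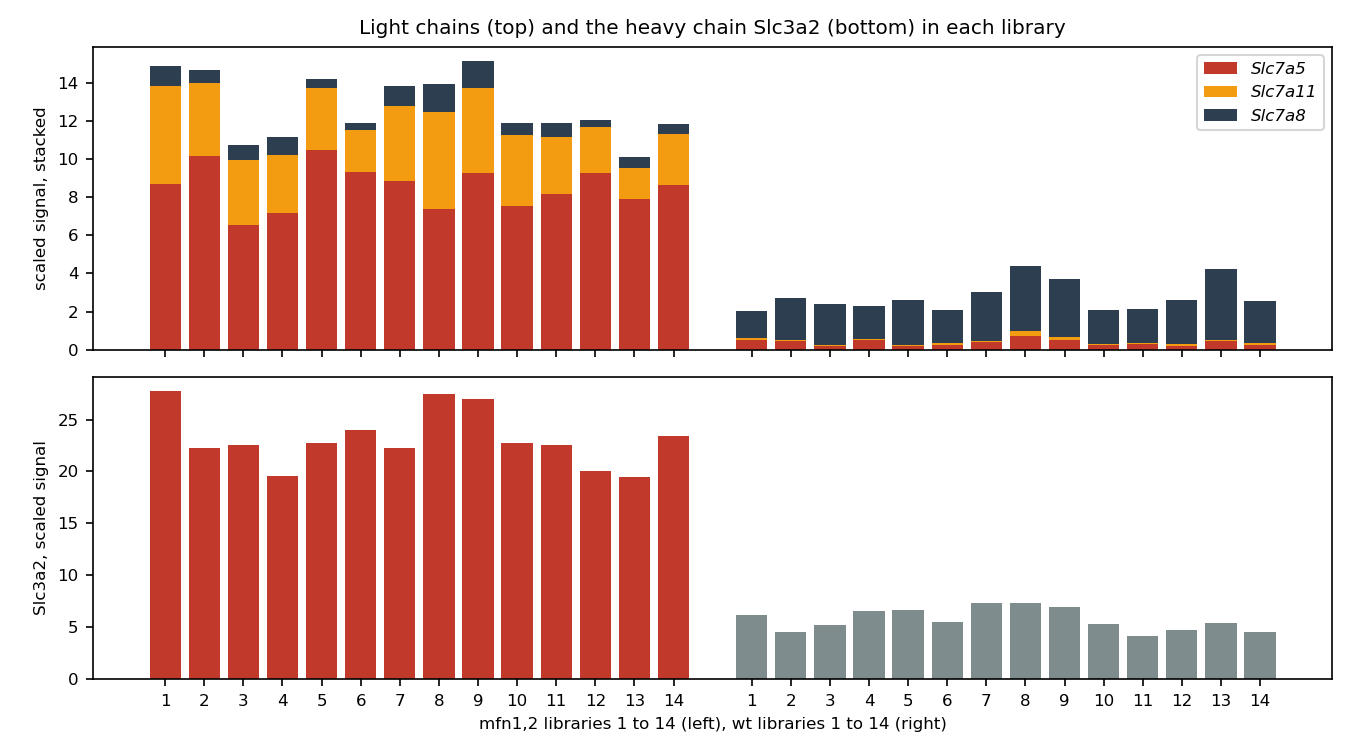
Stacked scaled levels of the light chains *Slc7a5*, *Slc7a11* and *Slc7a8* (top, vertical axis in scaled signal from 0) and of the heavy chain *Slc3a2* (bottom, same unit) in each of the 14 *mfn1,2* libraries (left) and 14 wt libraries (right), 1 bar per library. *Slc7a5* is the tallest segment in every *mfn1,2* library and *Slc7a8* in every wt library, while *Slc3a2* lies between 19.5 and 27.8 in *mfn1,2* and between 4.17 and 7.36 in wt libraries.

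Transcription of *Slc7a11* and of other carriers by ATF4 is known to run through C/EBP-ATF response elements. RefSeq promoters (build GRCm38.p6, 250 bases before to 50 after each start) were found for 7 of the 10 transporters, 10 promoters in all, and the remaining 3 are *Slc1a5*, *Slc7a2* and *Slc7a5*. They were searched on both strands for the core letters TGATGNAAN, which 3.95% of all 32851 promoters of the table hold. *Slc7a11* held 2 matches, which is the case for 0.07% of all promoters, and *Slc1a4* held 1. The 4 stretches below run 5′ to 3′ on the strand of the gene from 120 bases before the start to 20 after it, with the matches in capitals. They show the 2 genes with a match, the heavy chain, which rose without one in this window, and the light chain that fell.
*Slc7a11*, chr3:50443594-50443733, minus strand: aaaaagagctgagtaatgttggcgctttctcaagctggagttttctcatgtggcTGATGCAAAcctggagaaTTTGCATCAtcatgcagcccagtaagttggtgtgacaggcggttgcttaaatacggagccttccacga
*Slc1a4*, chr11:20332694-20332833, minus strand: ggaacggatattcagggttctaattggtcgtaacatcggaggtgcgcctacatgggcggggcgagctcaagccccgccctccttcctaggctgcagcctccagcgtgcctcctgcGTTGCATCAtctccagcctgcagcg
*Slc3a2*, chr19:8713878-8714017, minus strand: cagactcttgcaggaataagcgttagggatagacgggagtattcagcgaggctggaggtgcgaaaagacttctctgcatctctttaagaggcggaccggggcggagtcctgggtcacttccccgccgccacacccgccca
*Slc7a8*, chr14:54781867-54782006, minus strand: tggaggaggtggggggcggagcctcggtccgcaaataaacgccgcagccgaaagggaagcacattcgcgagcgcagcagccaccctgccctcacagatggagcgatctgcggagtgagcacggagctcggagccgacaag
Counted from the start, with no base 0, the *Slc7a11* matches lie at −66 to −58 on the strand of the gene and at −48 to −40 on the opposite strand, where the 9 letters are the same, TGATGCAAA. The *Slc1a4* match spans −5 to 4 on the opposite strand. The promoters of *Slc3a2*, *Slc38a2*, *Slc6a9*, *Slc7a1* and *Slc7a8* held no match in this window. Sequence outside the window was not searched, so a match elsewhere in these genes is not excluded. The core letters of the antioxidant response element, TGACNNNGC, occurred in promoters of *Slc38a2*, *Slc6a9* and *Slc7a1*, and in 12.4% of all promoters. None of the promoters found held both motifs. A match of letters is not a bound site.

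The cationic carriers *Slc7a1* and *Slc7a2*, which bring in arginine, lysine and ornithine without a heavy chain, also differed in direction. *Slc7a1*, which encodes the widely expressed CAT1, ranged over 3.79 to 7.69 with a median of 4.92 in *mfn1,2* libraries, against 0.319 to 1.19 with a median of 0.582 in wt libraries. All 14 *mfn1,2* libraries were above all wt libraries, of which numbers 8 and 9 were the highest. *Slc7a1* rose by 2.93 on the log2 scale (SE 0.15, adjusted *P* = 6.85e-17 from limma).

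*Slc7a2*, which encodes CAT2, the cationic carrier known from liver, muscle and activated macrophages, ranged over 2.99 to 5.88 with a median of 4.83 in *mfn1,2* libraries, against 3.83 to 10.3 with a median of 7.66 in wt libraries. The genotypes overlapped, with 3 *mfn1,2* libraries below every wt library, 11 wt libraries above every *mfn1,2* library, and wt numbers 7, 12 and 13 within the *mfn1,2* range. Its log2 fold change was −0.62 (SE 0.13, adjusted *P* = 2.04e-04 from limma). This was a fall relative to the other genes, and it changed with the scale. The log2 fold change was −0.48 (adjusted *P* = 0.0077) with libraries scaled to the same total without mitochondrially encoded genes, 0.01 (adjusted *P* = 0.966) as deposited, 0.20 (adjusted *P* = 0.369) scaled to *Actb* and 0.42 (adjusted *P* = 0.044) scaled to the same total, all from limma. Of the exonic length of *Slc7a2*, 6.95% overlaps the gene model *Gm26584* on the opposite strand.

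The relation between the cationic carriers held apart from the scale. The log2 ratio of *Slc7a1* to *Slc7a2* was 0.18 ± 0.32 (SD, *n* = 14) in *mfn1,2* libraries, ranging from −0.36 to 0.75, and −3.37 ± 0.68 (SD, *n* = 14) in wt libraries, ranging from −4.25 to −2.34. The difference of 3.55 had a permutation *P* of 2e-05, the smallest the test can give. *Slc7a1* exceeded *Slc7a2* in 9 of 14 *mfn1,2* libraries and in 0 of 14 wt libraries, and it made up 53.1% ± 5.58 of their sum in *mfn1,2* muscle and 8.44% ± 4.01 in wt muscle (SD, *n* = 14 each).

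**Figure D3:**
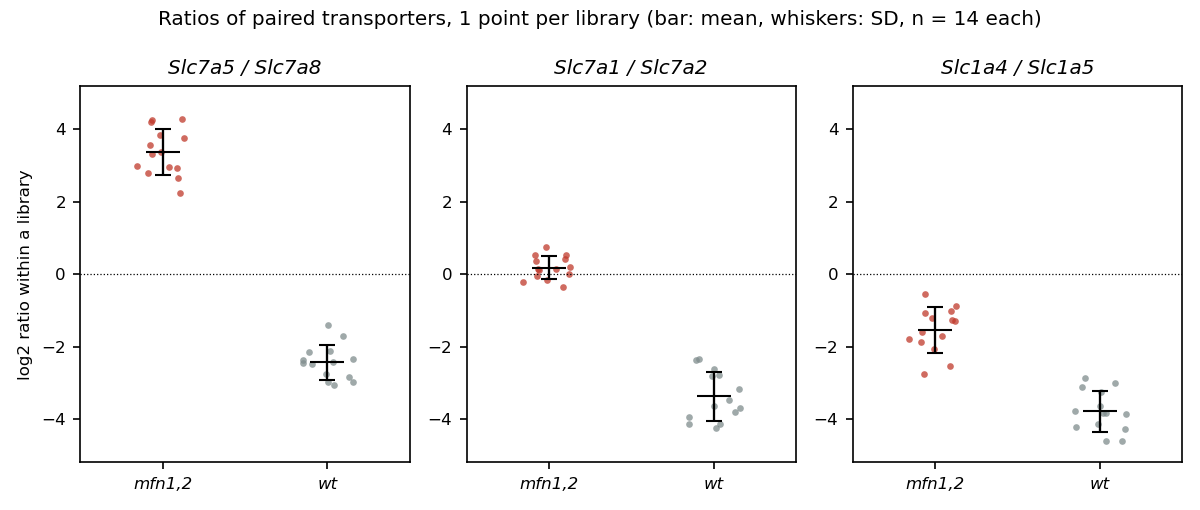
Log2 ratio within each library (vertical axis) of *Slc7a5* to *Slc7a8*, *Slc7a1* to *Slc7a2* and *Slc1a4* to *Slc1a5* in 14 *mfn1,2* libraries (left, red) and 14 wt libraries (right, grey), with the mean as a bar, 1 SD as whiskers and a dotted line where both genes are equal. The genotypes do not overlap in any of the 3 ratios, and *Slc7a5* to *Slc7a8* is above 0 in all *mfn1,2* and below 0 in all wt libraries.

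*Slc38a2* encodes SNAT2, which takes up glutamine, alanine and other small neutral amino acids with sodium and is the carrier of the classic adaptive response to amino acid shortage. It was the most abundant of the 10 in both genotypes, at 20.6 to 37.9 with a median of 31.4 in *mfn1,2* libraries, against 8.87 to 34.8 with a median of 14.4 in wt libraries. The overlap rested mainly on wt numbers 2 and 14, at 34.8 and 28.0. Wt number 6, at 21.5, also lay above the lowest *mfn1,2* library, and the other 11 wt libraries were below every *mfn1,2* library. *Slc38a2* rose by 0.91 on the log2 scale (SE 0.15, adjusted *P* = 4.94e-06 from limma), the smallest of the 6 rises.

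*Slc1a4* and *Slc1a5* encode ASCT1 and ASCT2, sodium-dependent exchangers of neutral amino acids, ASCT1 with a preference for serine, alanine and threonine and ASCT2 known for glutamine. *Slc1a4* ranged over 0.233 to 1.43 with a median of 0.765 in *mfn1,2* libraries, against 0 to 0.363 with a median of 0.0740 in wt libraries. In 13 of 14 *mfn1,2* libraries it was above every wt library, and the exception was *mfn1,2* number 3 at 0.233, below wt number 8 at 0.363. The difference in mean log2(level + 0.1) was 2.27, with the smallest permutation *P* possible, 2e-05. With levels this low the size depends on the amount added, at 0.73 with 1 added and 3.31 with 0.01 added, both with the same *P*.

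*Slc1a5* ranged over 1.41 to 3.68 with a median of 2.42 in *mfn1,2* libraries, against 1.33 to 3.90 with a median of 2.34 in wt libraries. The libraries of the genotypes were mixed over the whole range. Its log2 fold change was 0.02 (SE 0.16, adjusted *P* = 0.932 from limma). It passed the test as higher with libraries scaled to *Actb* (0.81) and to the same total (1.02), scales on which the median of all genes was also raised. The log2 ratio of *Slc1a4* to *Slc1a5* was −1.54 ± 0.63 in *mfn1,2* libraries and −3.79 ± 0.57 in wt libraries (SD, *n* = 14 each), a difference of 2.25 (permutation *P* = 2e-05), with no overlap. It moved to 0.72 with 1 added and to 3.29 with 0.01 added. *Slc1a5* was the more abundant one in every library of both genotypes.

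*Slc6a9* encodes GLYT1, the sodium- and chloride-dependent glycine carrier that is best known from glia and from red cell precursors. It ranged over 2.28 to 4.30 with a median of 3.19 in *mfn1,2* libraries, against 0.0651 to 0.563 with a median of 0.335 in wt libraries. The genotypes were far apart, and in *mfn1,2* muscle the level was among the steadier ones (coefficient of variation 16.4%, against 52.0% in wt muscle). *Slc6a9* rose by 3.00 on the log2 scale (SE 0.18, adjusted *P* = 6.68e-15 from limma). Of the exonic length of *Slc6a9*, 27.8% overlaps *Ccdc24*, 9.94% *Gm17114* and 0.895% *B4galt2*, all on the opposite strand, and whether the counting used strand is not given in the sources used here. *Ccdc24* was at 0.131 ± 0.108 in *mfn1,2* and 0.0955 ± 0.108 in wt muscle (SD, *n* = 14 each), far under *Slc6a9* in *mfn1,2* muscle. Markers of red cells, of which 5 of 6 were in the table and 0 of 4 tested rose or fell, summed to 23.2 to 202 in *mfn1,2* and 35.0 to 379 in wt libraries. Markers of Schwann cells, of which 1 of 4 tested rose, summed to 8.11 to 44.2 in *mfn1,2* and 3.62 to 28.5 in wt libraries, and their part in the result was not tested.

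By level, the order of the 10 differed between the genotypes. In *mfn1,2* muscle it was *Slc38a2*, *Slc3a2*, *Slc7a5*, *Slc7a1*, *Slc7a2*, *Slc7a11*, *Slc6a9*, *Slc1a5*, *Slc1a4* and *Slc7a8*. Of the neighbours in this order, *Slc7a1* and *Slc7a2* were in that order in 9 of 14 libraries, *Slc7a11* and *Slc6a9* in 6 and *Slc1a4* and *Slc7a8* in 6, so these pairs did not differ beyond their spread. In wt muscle the order was *Slc38a2*, *Slc7a2*, *Slc3a2*, *Slc1a5*, *Slc7a8*, *Slc7a1*, *Slc7a5*, *Slc6a9*, *Slc1a4* and *Slc7a11*. There *Slc1a5* was above *Slc7a8* in 7 of 14 libraries, *Slc7a5* above *Slc6a9* in 8 and *Slc1a4* above *Slc7a11* in 7. *Slc38a2* made up 36.3% ± 3.91 of the summed level of the 10 in *mfn1,2* muscle and 44.9% ± 8.93 in wt muscle. *Slc3a2* made up 28.2% ± 1.88 in *mfn1,2* and 16.6% ± 4.96 in wt muscle, and *Slc7a2* 5.66% ± 0.996 in *mfn1,2* and 20.4% ± 4.87 in wt muscle (SD, *n* = 14 each). Single libraries recurred at the ends of the ranges. Library 13 of the *mfn1,2* mice was the lowest *mfn1,2* library for *Slc3a2*, *Slc7a11*, *Slc7a2*, *Slc38a2* and *Slc1a5*. Wt number 8, which stood apart in the clustering, was the highest wt library for *Slc7a5*, *Slc7a11*, *Slc7a1*, *Slc1a4*, *Slc1a5* and *Slc6a9*.

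**Figure D4:**
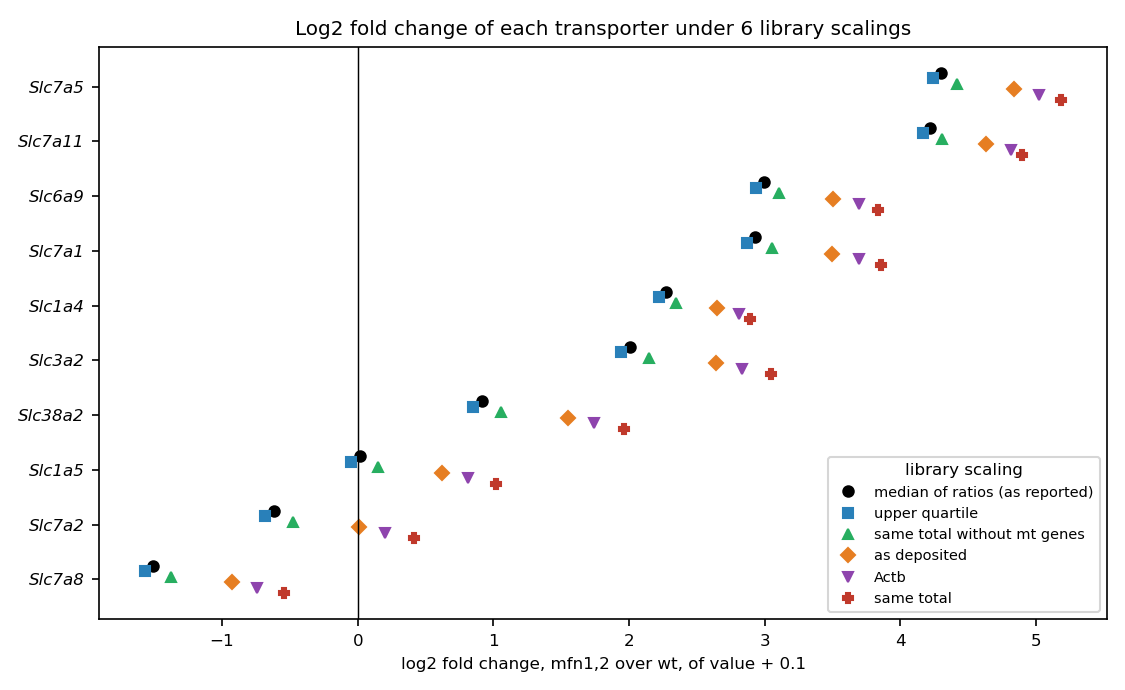
Log2 fold change of *mfn1,2* over wt muscle (horizontal axis, of the level + 0.1) for each of the 10 transporters, with 1 symbol for each of 6 ways of scaling the libraries and a line at 0; for *Slc1a4* the value is the difference in mean log2 level. All symbols of the first 7 genes lie above 0 and all those of *Slc7a8* below 0, while *Slc7a2* runs from −0.68 to 0.42 and *Slc1a5* from −0.05 to 1.02.

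The direction of 8 of the 10 transporters was the same on every scale. *Slc7a5* ran from 4.24 to 5.18, *Slc7a11* from 4.17 to 4.90, *Slc6a9* from 2.94 to 3.84, *Slc7a1* from 2.87 to 3.86, *Slc3a2* from 1.94 to 3.05 and *Slc38a2* from 0.85 to 1.96 over the 6 scales, with each of them past the test throughout. *Slc1a4* passed the minimum mean and rose as deposited, scaled to *Actb* and scaled to the same total, so the number that rose was 7 as deposited and, with *Slc1a5*, 8 on the other 2 of these scales. The number that fell was 1 as deposited and scaled to *Actb* (*Slc7a8*) and 0 scaled to the same total. Over all genes 3055 rose and 2696 fell on the common scale, 6770 and 538 as deposited, 7152 and 366 scaled to *Actb*, and 8649 and 284 scaled to the same total.

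Of the other carriers of amino acids at the plasma membrane, more fell than rose on the common scale. Of 31 listed, 14 were in the table and 11 were tested. Of these 2 rose and 5 fell in *mfn1,2* muscle, where 28.2% of all tested genes rose and 24.9% fell. Their median log2 fold change was −0.51. As deposited 3 of them fell, where 538 of all genes did. Scaled to the same total 6 of them rose and 3 fell, where 8649 of all genes rose and 284 fell. *Slc38a4*, which encodes SNAT4, a sodium-coupled carrier of small neutral amino acids, was at 1.17 ± 0.832 in *mfn1,2* and 7.86 ± 3.50 in wt muscle (SD, *n* = 14 each), or −2.73 on the log2 scale (SE 0.25, adjusted *P* = 9.58e-11 from limma). *Slc38a3*, which encodes the glutamine carrier SNAT3, was at 2.09 ± 0.972 in *mfn1,2* and 8.09 ± 1.95 in wt muscle, or −1.95 on the log2 scale (SE 0.15, adjusted *P* = 3.34e-12 from limma). Within the SLC38 family, *Slc38a2* thus rose while *Slc38a3* and *Slc38a4* fell. *Slc16a10*, which encodes TAT1, a carrier that lets aromatic amino acids out by facilitated diffusion, was at 1.55 ± 0.433 in *mfn1,2* and 5.23 ± 1.50 in wt muscle (log2 fold change −1.68, adjusted *P* = 6.54e-11 from limma), with no overlap. *Slc6a6*, the taurine carrier, fell by 0.51 on the log2 scale but was raised by 0.54 with libraries scaled to the same total. *Slc43a1*, which encodes the leucine carrier LAT3, fell by 1.01, but did not pass as deposited (−0.50), scaled to *Actb* (−0.35) or scaled to the same total (−0.18). *Slc1a3*, a glutamate carrier, rose by 1.66 and *Slc38a1*, which encodes the glutamine carrier SNAT1, by 2.41. *Slc38a1* and *Slc43a1* are named after their values were seen. *Slc38a1*, at a wt mean of 0.241, met the minimum only through its *mfn1,2* libraries, so no fall could be called for it. *Slc43a1*, at a mean of 0.343 in *mfn1,2* muscle, met it only through its wt libraries, so no rise could be called. *Slc7a6*, the heavy chain partner y+LAT2, was at 0.593 ± 0.209 in *mfn1,2* and 0.647 ± 0.257 in wt muscle and did not pass (adjusted *P* = 0.705 from limma), but passed as higher scaled to *Actb* (0.61) and to the same total (0.78). *Slc7a3*, another cationic carrier of the family, was listed at 0 in all 14 wt libraries and averaged 0.588 in *mfn1,2* libraries, too low to be tested.

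**Figure D5:**
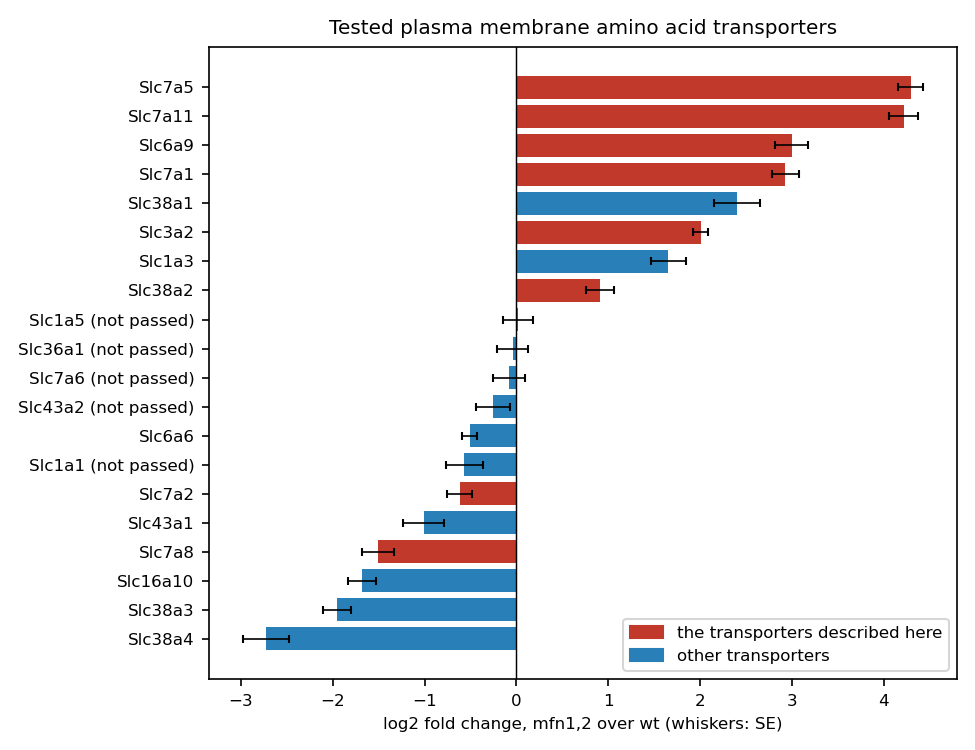
Log2 fold change of *mfn1,2* over wt muscle (horizontal axis, of the level + 0.1) with its standard error as whiskers for the 9 tested transporters described here (red) and 11 other tested plasma membrane amino acid transporters (blue), in order of size. The 4 largest rises are *Slc7a5*, *Slc7a11*, *Slc6a9* and *Slc7a1*, and the 3 largest falls are *Slc38a4*, *Slc38a3* and *Slc16a10*.

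Other genes of amino acid handling inside the cell were counted in the same way, where 28.2% of all tested genes rose and 24.9% fell. Of 6 tested genes of cysteine synthesis and of glutathione synthesis and turnover, 6 rose, with a median log2 fold change of 0.84. They were led by *Cth*, which makes cysteine from cystathionine, at 6.65 ± 1.51 in *mfn1,2* and 0.712 ± 0.387 in wt muscle (log2 fold change 3.21, adjusted *P* = 1.71e-13 from limma), followed by *Gss* (1.20), *Gsr* (1.01), *Gclm* (0.67), *Gclc* (0.60) and *Chac2* (0.43). Of 19 regulators and known targets of the amino acid response, 13 rose and 2 fell, with a median of 1.53. *Trib3*, *Asns* and *Sesn2* are among the rises. At wt means of 0.108, 0.457 and 0.167 they met the minimum only through their *mfn1,2* libraries, so no fall could be called for them. *Atf4* itself was at 98.0 ± 29.5 in *mfn1,2* and 31.7 ± 3.60 in wt muscle (log2 fold change 1.53, adjusted *P* = 3.53e-09 from limma). In *mfn1,2* libraries 4 and 13 *Atf4* was at 30.0 and 36.9, within the wt range of 25.7 to 37.2. The other *mfn1,2* libraries were at 79.7 or above. *Slc7a5* was at 7.17 and 7.90 in libraries 4 and 13, and *Asns* at 29.7 and 29.6. Of the other transporters described here that rose, *Slc7a1* was at 4.63 and 3.92, *Slc6a9* at 3.80 and 2.63 and *Slc38a2* at 31.1 and 20.6. *Slc7a11* was at 3.08 and 1.68, and *Slc3a2* at 19.6 and 19.5, its lowest *mfn1,2* levels. *Nupr1*, of the same list as *Atf4*, was also lowest there, at 21.5 and 22.5. How these levels relate to *Atf4* was not tested. *Asns*, the asparagine synthetase that is regulated with these carriers in cultured cells, rose by 6.01. *Nfe2l2*, which encodes the antioxidant regulator NRF2, rose by 0.86. *Eif2ak1*, which encodes HRI, a kinase upstream of ATF4, fell by 0.45 but was at 0.18 as deposited. Of 30 tested genes by which mTORC1 senses amino acids, 11 rose and 3 fell, with a median of 0.11 and so near that of all genes. Among the rises, *Rragb*, at a wt mean of 0.496, likewise met the minimum only through its *mfn1,2* libraries. *Castor2*, a paralog of the gene of the arginine sensor CASTOR1, was at 1.54 ± 0.453 in *mfn1,2* and 6.62 ± 1.48 in wt muscle, with no overlap (log2 fold change −2.06, adjusted *P* = 5.06e-14 from limma). *Sesn1* rose by 1.41, and its relative *Sesn2*, a leucine sensor counted above among the targets of the amino acid response, rose by 3.85. *Sesn3* fell by 0.95, but did not pass as deposited (−0.34), scaled to *Actb* (−0.14) or scaled to the same total (0.065). *Rragd*, a GTPase of the lysosomal sensing complex, fell by 1.29, but did not pass scaled to *Actb* (−0.46) or to the same total (−0.24).

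Markers of other cells in the muscle moved with the genotype too. They were counted on the common scale only, where 28.2% of all tested genes rose and 24.9% fell. Whether their changes hold on the other scales was not tested. Muscle fiber markers, all 10 of them in the table, summed to 24645 to 39939 in *mfn1,2* and 24048 to 63052 in wt libraries, and 1 rose and 6 fell. Of 10 endothelial markers 9 fell, with sums of 40.6 to 59.9 in *mfn1,2* and 62.2 to 112 in wt libraries. Of 7 tested macrophage markers 6 fell (sums of 6.09 to 19.5 in *mfn1,2* and 9.43 to 27.5 in wt libraries), of 10 fibroblast markers 4 fell (90.2 to 763 in *mfn1,2* and 194 to 1482 in wt libraries), and of 3 tested satellite cell markers 1 rose and 2 fell (3.83 to 5.61 in *mfn1,2* and 5.21 to 11.8 in wt libraries). The 3 tested adipocyte markers did not pass, at sums of 0.396 to 11.1 in *mfn1,2* and 0 to 8.12 in wt libraries, and 0 of 6 lymphocyte markers were in the table. The transporters that fell thus did so beside most of the tested markers of endothelium and macrophages. Markers of fibers, fibroblasts and satellite cells were mixed, with some that fell and others that rose or did not pass. The part of any of these cells in the fall of the transporters was not tested.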

How the data were processed

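Values were deposited as 1 normalized signal for each gene in each library. The authors made them from stranded total RNA with Trim Galore, HISAT2 and featureCounts, then DESeq2, and build mm9, as listed by the submitters with no tool versions. Which unit the signal has is not given in the sources used here. Of the values above 0, 100% were fractional. A gene's lowest value declined with its exonic length (log-log slope −1.02 over 262 genes). Depth is therefore unknown, counts were not tested and no counting interval is given. Precision rests on 14 mice per genotype. Columns left unused numbered 0, and at most 0.00813% of values were equal in any pair of libraries.

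Libraries were divided by the median of their ratios to the geometric mean over 11693 genes above 0 in all 28. The genotype fit used limma 3.58.1 under R 4.3.3 (lmFit, eBayes with trend) on log2(value + 0.1) for 10819 genes with a mean of at least 0.5, with Benjamini-Hochberg adjustment over all of them. For single values a 2-sided permutation test was used (100000 resamples; scipy 1.17.1, numpy 2.4.6, Python 3.11.15), and figures were drawn with matplotlib 3.10.9. In a simulated comparison of *mfn1,2* with wt over 10430 genes, 93.8% of 96 genes changed by a log2 fold of 1 and 100% of 88 changed by 3 were recovered, with 2 false calls. The simulation used wt spreads in both groups and changed few genes, up and down alike. It therefore does not bear on the choice of scale. The transporters, the other gene lists and the markers were chosen with earlier results of these data known. All 10 transporters are named. Of the other lists, up to 6 genes with the largest changes among those that passed with a mean of at least 1, the largest change the other way and genes picked by role were eligible, of which some are printed. Alternatives were 5 other scales, other amounts added, other filters, robust variance, a Wilcoxon test and leaving out libraries.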

Additional observations from a re-analysis of the deposited data

How the results depend on the processing

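No paired analysis was possible because the columns carry a genotype and a running number and not the replicate numbers of the labels. Over the 28 fits that each left out 1 library, 6 transporters rose and 2 fell every time, all genes that rose numbered 2937 to 3102 and all that fell 2610 to 2761, and *Slc1a5* ran from −0.045 to 0.075. With pseudocounts of 1 or 0.01, robust variance or the Wilcoxon test no count moved by over 1.5 times. A minimum mean of 5, which tests fewer genes, left 1719 genes rising and 1155 falling, 2 and 1 of the transporters, 0 and 2 of the other carriers, 1 fall in the amino acid response list, 7 rises in mTORC1 sensing and 2 in glutathione. The scale moved more. As deposited, 6770 genes rose and 538 fell, with falls of 1 transporter, 3 other carriers and 0 in the amino acid response list and 24 rises in mTORC1 sensing. Scaled to *Actb*, 7152 rose and 366 fell, with 1 transporter falling, 4 other carriers rising and 3 falling, 0 falls in the amino acid response list, and 26 rises and 1 fall in mTORC1 sensing. Scaled to the same total, 8649 rose and 284 fell, with 0 transporters falling, 6 other carriers rising and 3 falling, 0 falls in the amino acid response list, and 27 rises and 1 fall in mTORC1 sensing. The amino acid response list had 1 fall with mitochondrially encoded genes left out of the total and 1 without the 5 libraries that stand apart, a setting added after the data were seen.

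Signs that turned were those of *Slc7a2* (0.0087 as deposited, 0.20 to *Actb*, 0.42 to the same total), *Slc6a6* (0.13, 0.32 and 0.54 on those scales), *Eif2ak1* (0.18, 0.37 and 0.60), *Slc7a6* (0.44, 0.61 and 0.78, 0.032 without mitochondrially encoded genes and 7.42e-05 without the 5 libraries), *Mfn2* (0.18 to *Actb* and 0.40 to the same total), *Sesn3* (0.065 to the same total) and *Slc1a5* (−0.046 by the upper quartile). Calls lost were those of *Slc7a8* (−0.54 to the same total), *Rragd* (−0.46 to *Actb*, −0.24 to the same total), *Slc43a1* (−0.50 as deposited, −0.35 to *Actb*, −0.18 to the same total), *Sesn3* (−0.34 as deposited, −0.14 to *Actb*) and *Mfn2* (−0.019 as deposited). *Slc1a5* (0.81 and 1.02) and *Slc7a6* passed as higher to *Actb* and to the same total. The causes were not tested. Correlations of *Slc3a2* had an adjusted *P* under 0.05 in wt libraries as deposited with *Slc7a5* (0.71), *Slc7a8* (0.74) and *Slc7a11* (0.73), and by the upper quartile with *Slc7a5* (0.57) and *Slc7a11* (0.56) in wt and *Slc7a8* (0.57) in *mfn1,2* libraries. Low levels limit the sizes. With 1 added, *Slc7a5* was at 2.81, *Slc7a11* at 1.99, *Slc7a1* at 1.94, *Slc6a9* at 1.64, *Slc1a4* at 0.73 and *Slc7a8* at −0.90.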
